A study of Homo sapiens with 6 samples.

Results

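PC9/gef and PC9 cells were compared over 46 genes at the far end of the long arm of chromosome 11, from ESAM to GLB1L2 in gene order, out of the 19775 genes with a probe set of their own. The 46 genes were selected on measured values of this same comparison, and ETS1, FLI1 and ST14 were included by name. Their changes are therefore given as a description. Where a member is said to be called or not to have passed, this refers to the fit over all genes and is no independent test, and no p is given for it. A probe set was taken where its annotation names exactly 1 of the 46 genes, which gave 109 probe sets, and all 46 genes had at least 1.

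PC9/gef is a gefitinib-resistant line that was selected from PC9 under continuous exposure to rising concentrations of gefitinib, a drug that blocks the EGFR kinase. Its parent PC9 is a gefitinib-sensitive line of lung adenocarcinoma. The 3 PC9/gef and the 3 PC9 samples, which the labels call biological replicates, were each hybridized to 1 Affymetrix U133 Plus 2.0 array. The labels give no genotype beyond the name of the line and do not say whether gefitinib was in the medium at harvest. Only 1 resistant line was on the arrays, so what goes with resistance and what is particular to that line cannot be told apart. Values are log2 signals as the authors normalized them, and a change is the mean of PC9/gef minus the mean of PC9, so that a change of -1 is 0.5 of the PC9 signal. A gene was read from its brightest probe set, and it was called above background where its mean in at least 1 line exceeded 2.65, a level set by 135 probe sets of olfactory receptors.

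The 6 arrays held values from 1.65 to 15.72 with a median of 2.55, and correlated at 0.9992 or more within a line and at 0.9944 or less between lines. All 6 epithelial markers were above background, with EPCAM at 14.45 ± 0.09 in PC9/gef and 14.46 ± 0.05 in PC9 (SD, n = 3 each). The changes of the 6 ran from -0.33 to 0.29, and 2 were called lower and 2 higher. The lung lineage factor NKX2-1 and the lung protease NAPSA were at background in both lines, whereas SFTPB, the third lung marker, was above background at 4.33 ± 0.19 in PC9/gef and 4.31 ± 0.04 in PC9. Of the leukocyte and the fibroblast markers 1 each was above background, LYZ, which changed by -1.09, and COL1A1, which changed by 0.52. The lines were compared with limma over all genes, because with 3 arrays a line the smallest two-sided p of an exact permutation test is 0.1. At a Benjamini-Hochberg adjusted p under 0.05, 17.1% of the 19775 genes were lower and 14.4% were higher in PC9/gef. Among the 11955 genes above background these shares were 22.2% lower and 23.8% higher.

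The distal part of 11q holds genes of unrelated function side by side. They include CHEK1, whose kinase holds the cell cycle when DNA replication stalls, the ETS family transcription factors ETS1 and FLI1, and ST14, which encodes matriptase, a membrane serine protease of epithelia. Deletion of this end of the chromosome is the cause of Jacobsen syndrome, in which heart, platelet and immune defects are seen.

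Of the 46 genes, 33 were above background and 13 were at background in both lines. Among the 33, 31 had a lower mean in PC9/gef and 2, ETS1 and ADAMTS15, had a higher mean. Of all genes above background 51.4% were lower by sign. The limma fit over all genes called 25 of the 33 lower and 2 higher, and 6 did not pass (ESAM, CCDC15, SLC37A2, TIRAP, VPS26B and GLB1L2). These counts stand beside 22.2% and 23.8% over all genes above background, and nothing is read from them because the same contrast chose the genes. In RNA of bulk cultures, fewer cells with a transcript and less of it per cell cannot be told apart.

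The median change over the 33 genes was -0.59, which is 0.663 of the PC9 signal, and the middle of the distribution ran from -0.79 at the 25th percentile to -0.41 at the 75th. Over all 11955 genes above background the median change was -0.01, with -0.45 at the 10th percentile and 0.48 at the 90th. The median signal of the 33 genes was 7.09, 7.11 and 7.14 on the PC9/gef arrays, against 7.71, 7.64 and 7.61 on the PC9 arrays. The 3 PC9/gef arrays lay close together and below all 3 PC9 arrays. The genes were selected on these same arrays, so this separation is a description only. For 29 of the 33 genes every PC9/gef array was below every PC9 array, for 2 every one was above, and for 2 (SLC37A2 and TIRAP) the arrays overlapped. All PC9/gef arrays were below all PC9 arrays for 33.8% of the genes above background.

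**Figure D1:**
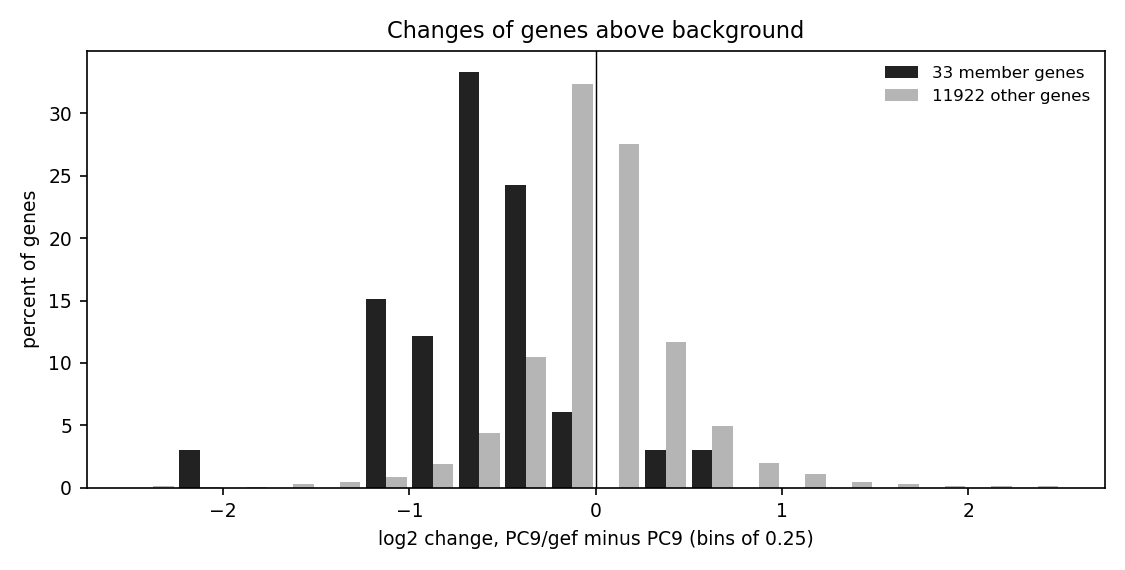
Percent of genes (y axis) in each bin of 0.25 of the log2 change of PC9/gef minus PC9 (x axis), for the 33 members and for the 11922 other genes above background. The tallest bar of the members, with 11 genes, lies between -0.75 and -0.5, and the other genes are centred near 0.

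A change of 2-fold or more downward, seen in 2.22% of the genes above background, was reached by 6 members, BARX2, HYLS1, ST3GAL4, CDON, DCPS and TMEM45B. No member was 2-fold higher. The values just inside and just outside this limit were TMEM45B at -1.0 and MSANTD2 at -0.95. The SD between arrays of a line ranged from 0.00195 to 0.44 over the 33 genes, with a median of 0.079. The 4 members with a PC9 mean below 5 (ESAM, CCDC15, SLC37A2 and GLB1L2) had a median change of -0.18, against -0.73 for the 8 with a mean from 5 to 7 and -0.67 for the 21 above 7. Over all genes above background the medians in these ranges were -0.013, -0.0029 and -0.00065.

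**Figure D2:**
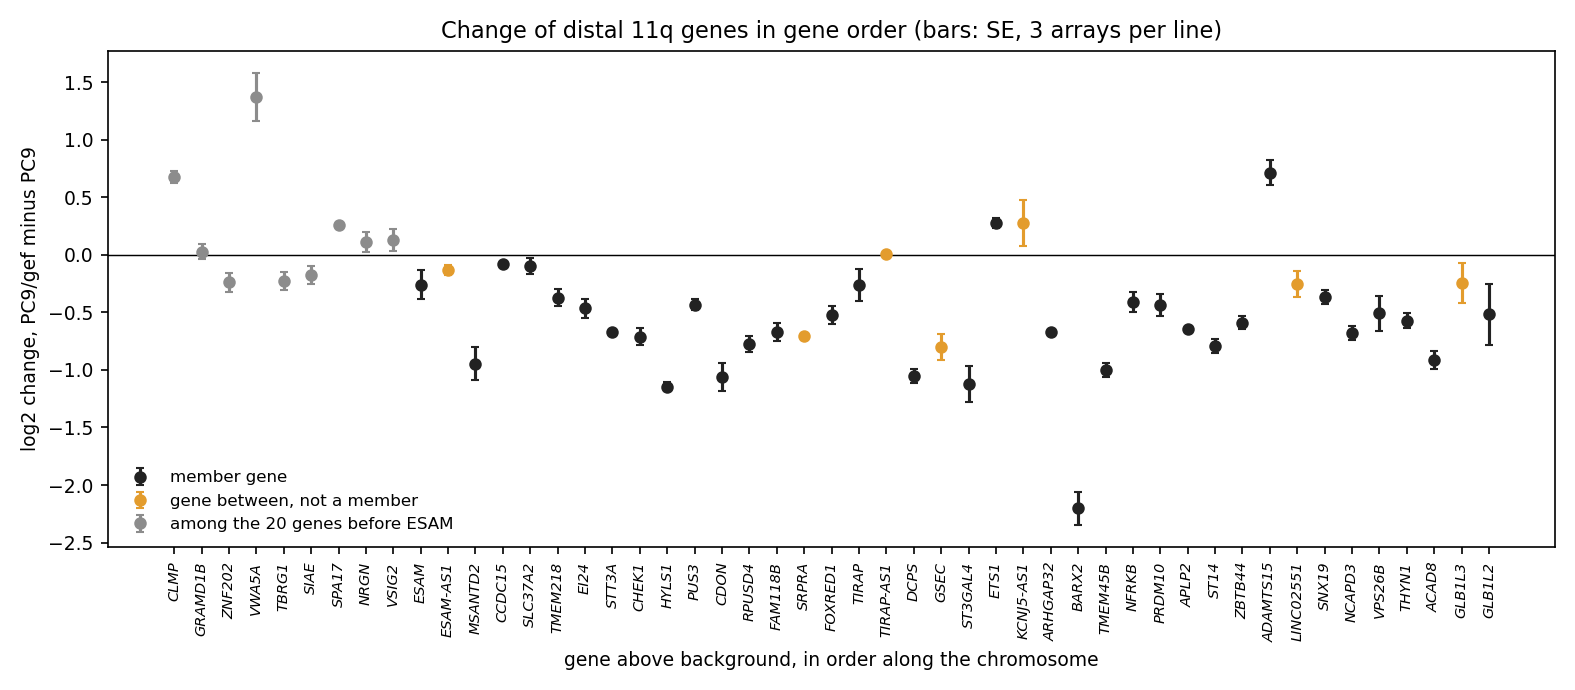
Log2 change of PC9/gef minus PC9 (y axis, bars are SE, 3 arrays per line) for the genes above background from the 20 genes before ESAM to GLB1L2, in gene order (x axis). Apart from BARX2 at -2.20 and from ETS1 and ADAMTS15 above 0, the members lie between -1.15 and -0.08.

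The genes next to the 46 are described too, but the 46 were selected on this comparison, so no contrast in position is drawn. The 20 genes with a probe set just before ESAM held 9 above background. None of the 9 was called lower and 3 were called higher, CLMP at 0.68, VWA5A at 1.37 and SPA17 at 0.25. Over all genes above background, 22.2% were called lower and 23.8% higher. At an unadjusted p under 0.05, limma gave 2 lower and the methods' t-test 0. The median change of the 9 was 0.11. For 3 of them every PC9/gef array was below every PC9 array, ZNF202 at -0.24, TBRG1 at -0.23 and SIAE at -0.18. For the 3 called higher every one was above, and for 3 the arrays overlapped. All PC9/gef arrays were below all PC9 arrays for 33.8% of all genes above background. Nearest to ESAM lay VSIG2, which averaged 5.95 ± 0.15 in PC9/gef and 5.82 ± 0.08 in PC9, and then NRGN, which averaged 2.81 ± 0.08 in PC9/gef and 2.70 ± 0.13 in PC9. Neither passed, and the arrays overlapped for both. Beyond GLB1L2 the array had only B3GAT1 and B3GAT1-DT, both at background.

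Between ESAM and GLB1L2 lay 29 further genes with a probe set that are not among the 46, and 7 of them were above background. SRPRA, the signal recognition particle receptor subunit, was called lower at 7.15 ± 0.06 in PC9/gef and 7.86 ± 0.01 in PC9, and so was the noncoding RNA GSEC at 6.26 ± 0.19 in PC9/gef and 7.06 ± 0.10 in PC9. The other 5 did not pass, with changes of -0.13 for ESAM-AS1, 0.0034 for TIRAP-AS1, 0.27 for KCNJ5-AS1, -0.26 for LINC02551 and -0.25 for GLB1L3.

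Along the whole of chromosome 11, 673 genes were above background. A running median over 15 neighbouring genes was lower than -0.5 in 26 of 659 windows, and all 26 held a gene from ESAM to GLB1L2. Its lowest value was -0.71, in windows centred on FAM118B, SRPRA, FOXRED1 and DCPS. In the 40 windows with a gene from ESAM to GLB1L2 it ranged from -0.71 to -0.062. In the 619 windows without any such gene it ranged from -0.45 to 0.62, so the ranges overlap. The rest of the chromosome as a whole had 624 genes above background with a median change of 0.0056, and 49.7% of them were lower by sign. No test was made, since the stretch was chosen for this pattern.

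**Figure D3:**
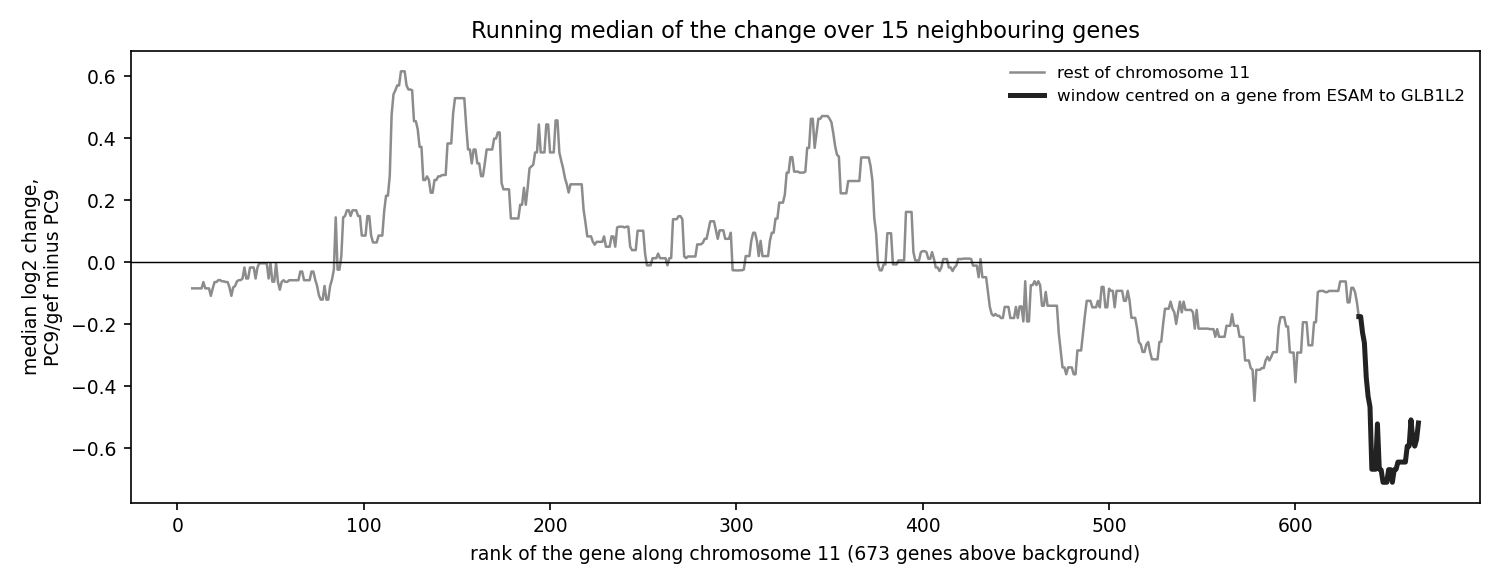
Running median of the log2 change of PC9/gef minus PC9 over 15 neighbouring genes (y axis) against the rank of the middle gene among the 673 genes above background along chromosome 11 (x axis). The windows centred on genes from ESAM to GLB1L2, drawn in black at the right end, reach -0.71, and the lowest of the windows without such a gene is -0.45.

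Several members start next to each other on opposite strands, and the short stretches between their start sites are shown because each of them carries a pair of members at once. The sequences are those of RefSeq on GRCh38.p14, plus strand, between the first bases of the transcripts, and bases in capitals are matches to a motif named after the sequences.
PUS3 and DDX25, chr11:125903207-125903327: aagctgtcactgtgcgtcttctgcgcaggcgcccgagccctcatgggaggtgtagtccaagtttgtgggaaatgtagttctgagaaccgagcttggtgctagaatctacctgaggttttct
RPUSD4 and FAM118B, chr11:126211651-126211781: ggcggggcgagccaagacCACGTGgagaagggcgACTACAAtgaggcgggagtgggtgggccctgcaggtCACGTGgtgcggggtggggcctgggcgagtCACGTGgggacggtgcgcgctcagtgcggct
THYN1 and ACAD8, chr11:134253353-134253567: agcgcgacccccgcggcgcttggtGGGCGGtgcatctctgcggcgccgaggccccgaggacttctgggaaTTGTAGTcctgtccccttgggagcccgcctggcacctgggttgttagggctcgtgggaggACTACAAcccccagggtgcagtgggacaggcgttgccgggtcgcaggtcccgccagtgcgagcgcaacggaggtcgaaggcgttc

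The motifs searched on both strands were the ETS core CCGGAAG, the GC box GGGCGG, the CCAAT box CCAAT, the TATA box TATAAA, the NRF1 core GCATGCGC, the E-box CACGTG and the ZNF143 core ACTACAA, the last 2 added after the sequences had been read. No 2 of these matches overlap in the sequences shown. The 121 bases between PUS3 and DDX25 held no match. The 131 bases between RPUSD4 and FAM118B, with 71.8% G and C, held 3 E-boxes and 1 ZNF143 core. The 215 bases between THYN1 and ACAD8, with 69.3% G and C, held 1 GC box and 2 ZNF143 cores.

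Both genes of the first GC-rich pair were lower in PC9/gef, with changes of -0.78 for RPUSD4 and -0.67 for FAM118B, and so were both of the other, with -0.57 for THYN1 and -0.92 for ACAD8. PUS3 changed by -0.43 whereas DDX25, which starts on the other side of the same stretch, was at background in both lines. The members were selected on this comparison, and 31 of the 33 above background were lower by sign. Nothing is therefore read from 2 genes of a pair being lower together. Over the 250 bases upstream of the start, RefSeq windows were given for 22 of the 33 members above background, 35 windows in all, several of which overlap. Of these 35, 23 (65.7%) held a GC box, against 42.6% of all 35116 human windows, and 13 (37.1%) held a CCAAT box, against 32.01%. An E-box was in 11.4% of the members' windows, against 6.34% of all, a ZNF143 core in 14.3%, against 2.47%, the ETS core in 2.86%, against 8.52%, and the NRF1 core in 2.86%, against 2.63%. No member window held the TATA box, against 10.7% of all. These shares describe letters and say nothing of binding. The E-box and the ZNF143 core were added after sequences of members had been read, so their shares are no independent finding. The 35 windows are of genes above background, whereas the 35116 are of human genes at any level. The shares therefore compare unlike sets, and this was not corrected for.

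Among the genes of the cell cycle and genome maintenance, CHEK1 measured 7.99, 7.95 and 8.10 on the PC9/gef arrays and 8.65, 8.85 and 8.68 on the PC9 arrays. The groups did not overlap, and the change was -0.71 ± 0.07 (SE). Its 2 other probe sets above background changed by -0.55 and -0.33. Of 15 other genes of the ATR-CHK1 checkpoint, all above background, 4 were called lower and 4 higher, with a median change of 0.0052. The largest changes were -1.10 for CDC25A, the phosphatase that CHK1 marks for destruction, 0.64 for TOPBP1, the activator of ATR, and -0.57 for CDC25B. These counts and those of the lists that follow stand beside the 22.2% and 23.8% over all genes above background, and no list was tested as a set.

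NCAPD3, a subunit of condensin II, which compacts mitotic chromosomes, averaged 7.88 ± 0.08 in PC9/gef and 8.56 ± 0.07 in PC9, a change of -0.68. Of the 7 other condensin subunits 3 were called lower, NCAPD2 at -0.40, NCAPG2 at -0.39 and NCAPH at -0.34, and 1 was called higher. NFRKB, a subunit of the INO80 chromatin remodelling complex, changed by -0.41, whereas of 13 other INO80 genes 2 were called lower and 1 higher, INO80B having the largest change at -0.37.

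HYLS1, a centriole protein needed for cilia, had values of 8.25, 8.36 and 8.31 on the PC9/gef arrays and of 9.48, 9.48 and 9.39 on the PC9 arrays. Its change of -1.15 ± 0.04 (SE) left 0.452 of the PC9 signal. TMEM218, a protein of the ciliary transition zone, changed by -0.37. No list of cilium genes was analysed.

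Among the transcription factors, BARX2, a homeobox factor of epithelia and muscle, had the largest change of the 46 genes. It measured 3.86, 4.14 and 3.93 on the PC9/gef arrays and 6.03, 6.43 and 6.08 on the PC9 arrays. The PC9/gef arrays were thus all far below the PC9 arrays but still above the background level. The change was -2.20 ± 0.14 (SE), or 0.218 of the PC9 signal, and BARX2 had only 1 probe set. PRDM10 and ZBTB44, zinc finger proteins, changed by -0.44 and -0.59.

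ETS1, a factor that acts downstream of growth factor signalling, went the other way. Its brightest probe set measured 9.34, 9.34 and 9.47 on the PC9/gef arrays and 9.10, 9.08 and 9.14 on the PC9 arrays, a change of 0.28 ± 0.04 (SE). Its other probe set above background gave the opposite sign, with 5.56 in PC9/gef and 5.77 in PC9, a change of -0.21, and no overlap of the arrays. The probe sets of ETS1 therefore disagree, and the call of the brightest one was lost when PC9 replicate 1 (0.27) or PC9 replicate 2 (0.26) was left out. FLI1, its neighbour and a factor of blood and endothelial cells, was at background, with 2.507, 2.511 and 2.509 on the PC9/gef arrays and 2.513, 2.513 and 2.512 on the PC9 arrays, and it did not pass. Of 24 other genes of the ETS family 21 were above background, of which 4 were called lower and 5 higher. ELF5, a factor of glandular epithelium, changed by -1.17, ETV4 by -0.77, and ETV1, which did not pass, by -0.77.

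**Figure D4:**
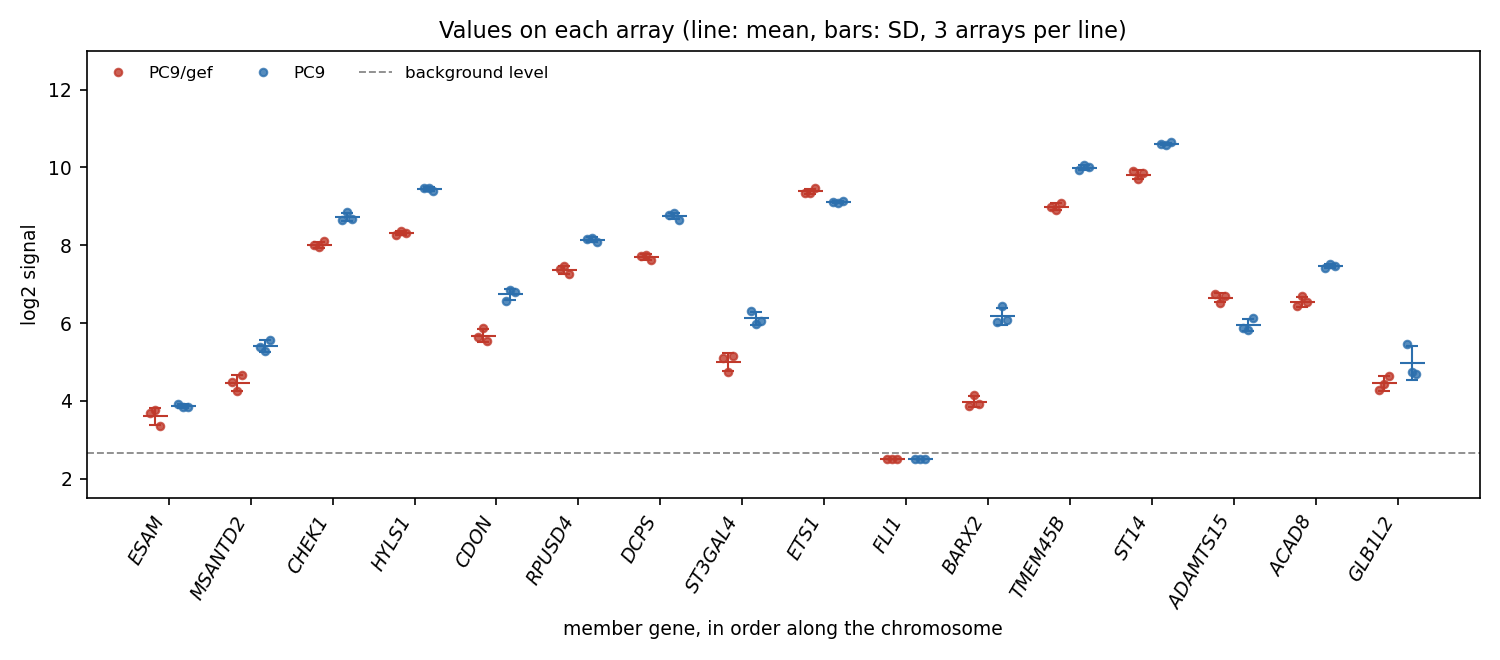
Log2 signal (y axis) of 16 member genes in gene order (x axis) on each PC9/gef array (red, left) and each PC9 array (blue, right), with the mean and the SD. In all but ETS1 and ADAMTS15, which are reversed, the red points lie below the blue ones, and FLI1, whose points differ by less than can be seen here, is under the dashed background level of 2.65.

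Among the cell surface proteases, ST14 measured 9.91, 9.70 and 9.85 on the PC9/gef arrays and 10.60, 10.59 and 10.65 on the PC9 arrays. The arrays did not overlap, the change was -0.79 ± 0.06 (SE), and a second probe set gave -0.93. Of 13 other genes that act with matriptase (its inhibitors, substrates and related proteases), 9 were above background, 3 called lower and 2 higher. MST1R, the receptor whose ligand matriptase can activate, changed by -1.40, MET by -0.61, and PLAU, which encodes urokinase, by 0.70.

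ADAMTS15, a secreted metalloprotease that cleaves versican, was the other member that was higher. It measured 6.74, 6.52 and 6.70 on the PC9/gef arrays and 5.89, 5.82 and 6.12 on the PC9 arrays. All PC9/gef arrays were above all PC9 arrays, with a change of 0.71 ± 0.11 (SE) or 1.64 times the PC9 signal. ADAMTS8, of the same family, was at background in both lines.

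Several members encode proteins of cell adhesion and guidance. ESAM, an immunoglobulin protein of endothelial tight junctions, measured 3.68, 3.78 and 3.35 on the PC9/gef arrays and 3.91, 3.84 and 3.84 on the PC9 arrays. The arrays did not overlap, but the change of -0.26 ± 0.12 (SE) did not pass and was -0.13 without PC9/gef replicate 3. Of 9 endothelial markers 6, CDH5 included, were at background in both lines and 3 (PECAM1, CLDN5 and ERG) were above it. The log2 values of all 9 added up to 26.4 to 26.7 on the PC9/gef arrays and to 29.3 on each PC9 array. Most of that difference lay in PECAM1, which averaged 6.49 ± 0.13 in PC9/gef and 8.90 ± 0.02 in PC9, a change of -2.40, and its part in the ESAM value was not tested. JAM3, another junctional protein, was at background, and of 8 related junction genes 6 were above background, 1 called lower and 3 higher, with CLMP at 0.68.

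CDON, a cell surface co-receptor for Hedgehog ligands, measured 5.63, 5.86 and 5.54 on the PC9/gef arrays and 6.57, 6.85 and 6.79 on the PC9 arrays. Every PC9/gef array was below every PC9 array, and the change was -1.06 ± 0.12 (SE). Of 11 other Hedgehog genes only 4 were above background, and 1 of them, the receptor PTCH1, was called lower at -0.47. ROBO3 and ROBO4, receptors of Slit proteins, were at background, whereas ROBO1, outside the stretch, was called lower at -0.70, 1 of 2 lower calls and, adjusted or not, 0 higher calls by limma or by the methods' t-test among 5 Slit and Robo genes above background.

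The IgLON genes NTM and OPCML, whose products join neurites, were at background in both lines, as were the neuronal genes FEZ1 and KIRREL3, the Ig protein IGSF9B, the homeobox gene PKNOX2, the testis helicase DDX25 and the kidney potassium channel KCNJ1. Of 3 other IgLON genes 1 was above background, and it was called higher at 2.70. Of 6 neuronal markers 3 were above background, and 0 of them passed in limma or in the methods' t-test, adjusted or not. Over the 13 members at background, line means of the brightest probe sets were 2.30 to 2.54 and changes -0.0047 to 0.025. All 32 of their probe sets were at background. ADAMTS8 was nevertheless called lower in the fit, at a level where arrays barely vary, and no level can be compared there.

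Other members act in protein glycosylation and sorting. ST3GAL4, a sialyltransferase that caps glycans of the sialyl Lewis type, measured 5.11, 4.73 and 5.15 on the PC9/gef arrays and 6.32, 5.98 and 6.06 on the PC9 arrays. The arrays did not overlap and the change was -1.12 ± 0.16 (SE), but a second, dimmer probe set gave -0.17. Of 5 other genes of the ST3GAL family 4 were above background and 3 were called lower, ST3GAL5 at -1.94, ST3GAL1 at -0.85 and ST3GAL6 at -0.62.

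STT3A, a catalytic subunit of the oligosaccharyltransferase, which attaches glycans to proteins entering the endoplasmic reticulum, averaged 9.26 ± 0.01 in PC9/gef and 9.93 ± 0.03 in PC9, a change of -0.67. STT3B, the other catalytic subunit and outside this chromosome arm, changed by -0.74. It was 1 of 5 lower and 2 higher calls among 11 other subunits, with RPN2 at -0.36 and OSTC at -0.34.

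VPS26B, a retromer subunit that sorts cargo from endosomes, averaged 5.86 ± 0.20 in PC9/gef and 6.37 ± 0.20 in PC9 and did not pass, and a second probe set gave -0.39. SNX19, a sorting nexin, changed by -0.37. Of 9 other retromer genes 2 were called lower and 5 higher, with SNX2 at 0.28 and SNX27 at 0.20.

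APLP2, the closest relative of the amyloid precursor protein, had 7 probe sets above background, which changed by -0.59 to -0.86. Its brightest one averaged 10.81 ± 0.00195 in PC9/gef and 11.46 ± 0.01 in PC9. All of these are _x_at or _s_at probe sets, types whose probes can bind related transcripts, and they may share probes. The remaining probe set of APLP2, of neither type, was at background, with a mean of 2.17 in each line. Of 11 other genes of the amyloid precursor family and its proteases above background, 4 were called lower and 4 higher, with APH1B at 1.62, PSEN2 at 0.69 and BACE1 at -0.57. EI24, a protein of the endoplasmic reticulum, changed by -0.47 and -0.58 in its 2 probe sets, and SLC37A2, a sugar phosphate exchanger, by -0.10 with overlapping arrays.

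Among the genes of RNA processing, DCPS, the enzyme that degrades the cap left over from mRNA decay, measured 7.72, 7.75 and 7.61 on the PC9/gef arrays and 8.78, 8.82 and 8.65 on the PC9 arrays. The arrays did not overlap, and the change was -1.06 ± 0.06 (SE). RPUSD4, a pseudouridine synthase of mitochondria, measured 7.40, 7.46 and 7.25 on the PC9/gef arrays and 8.17, 8.18 and 8.08 on the PC9 arrays. Its change was -0.78 ± 0.07 (SE), again without overlap. PUS3, which makes pseudouridine in tRNA, changed by -0.43. Of 9 other pseudouridine synthases, all above background, 4 were called lower and 0 higher in the limma fit, and all 9 were lower by sign, against 51.4% of all genes above background. At an unadjusted p under 0.05 the counts were 6 lower and 0 higher in limma and in the methods' t-test alike. RPUSD3 changed by -0.94, PUS1 by -0.50 and PUS7 by -0.22.

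In mitochondrial metabolism, ACAD8, the isobutyryl-CoA dehydrogenase of valine breakdown, measured 6.43, 6.68 and 6.54 on the PC9/gef arrays and 7.41, 7.52 and 7.47 on the PC9 arrays. Its change was -0.92 ± 0.08 (SE), with no overlap. Of 11 other genes of this pathway 6 were called higher and 3 lower, with a median change of 0.28. BCAT1, which starts branched-chain amino acid breakdown, changed by 0.94, BCKDHA by 0.49 and HADHA by 0.43. FOXRED1, an assembly factor of respiratory complex I, changed by -0.52.

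In immune signalling, TIRAP, the adaptor that links Toll-like receptors to MYD88, averaged 5.14 ± 0.20 in PC9/gef and 5.40 ± 0.15 in PC9, with overlapping arrays. Of 6 other genes of this pathway 5 were above background, 1 called lower and 1 higher, TLR2 at 0.85, and TRAF6, which did not pass, at 0.53.

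The remaining members above background included genes with less defined roles. MSANTD2 measured 4.48, 4.24 and 4.66 on the PC9/gef arrays and 5.37, 5.28 and 5.57 on the PC9 arrays, a change of -0.95 ± 0.14 (SE) with no overlap. TMEM45B, a membrane protein of epithelia, measured 8.996, 8.902 and 9.086 on the PC9/gef arrays and 9.926, 10.055 and 10.004 on the PC9 arrays. Both of its probe sets gave nearly the same change, -1.0 with an SE of 0.06 and -1.04. ARHGAP32 averaged 7.10 ± 0.01 in PC9/gef and 7.77 ± 0.02 in PC9, and its other 3 probe sets gave -0.78, -0.85 and -0.44. CCDC15 changed by -0.08, with a second probe set at -0.40.

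GLB1L2, the last of the 46 genes and a relative of beta-galactosidase, measured 4.27, 4.44 and 4.64 on the PC9/gef arrays and 5.47, 4.74 and 4.68 on the PC9 arrays. Its change of -0.52 ± 0.26 (SE) did not pass, and it carried the highest SD of the 33 genes, 0.44, in PC9, where replicate 1 stood above the other 2 arrays. Without that array its change was -0.26.

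Further readings of the same genes came from their other probe sets. The brightest probe set chose each gene's value, and 16 members had at least 1 more above background, 27 probe sets in all. All 27 were lower by sign in PC9/gef, including the second probe set of ETS1. Of the 60 member probe sets above background, 58 were lower by sign and the 2 higher ones were the brightest of ETS1 and ADAMTS15. Probe sets of 1 gene read the same RNA on the same arrays, so they are not replicates of the comparison.

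**Figure D5:**
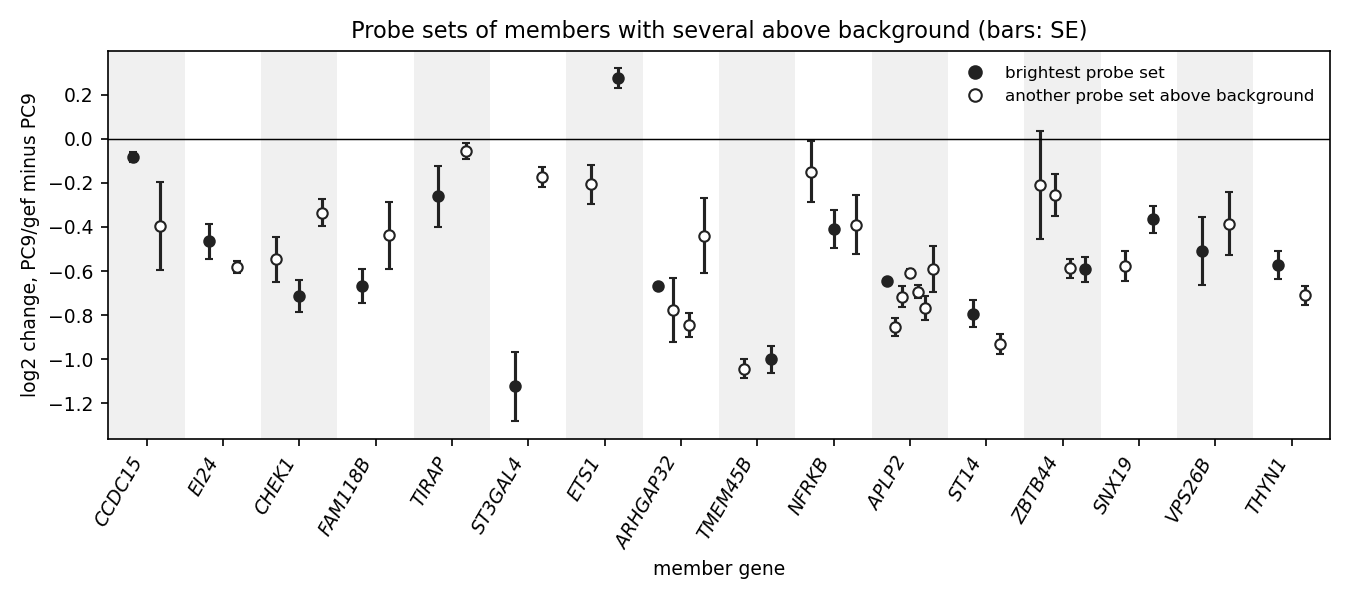
Log2 change of PC9/gef minus PC9 (y axis, bars are SE) for each probe set above background of the 16 members that have several (x axis, gene order). Filled points are the brightest probe set of a gene and open points the others, and only the brightest of ETS1, at 0.28, lies above 0.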

How the data were processed

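RNA of 3 PC9/gef and 3 PC9 samples was measured on Affymetrix U133 Plus 2.0 arrays, 1 per sample. The deposited log2 values are the authors' background-corrected and normalized summaries of each probe set. Their supplementary methods name GC-RMA in GeneSpring GX and the submitters' processing notes name RMA, with no version given in the sources used here. Such normalization makes the arrays alike in overall distribution, so changes are relative to all probe sets.

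Of 54675 probe sets, 62 controls were left out, 41091 carried a single gene name, 1801 carried several, and no gene was listed for 11721. A gene was read from its brightest probe set, by the mean of the 6 arrays. The background level was the 95th percentile over 135 probe sets of olfactory receptors, taken on their means. The lines were fitted with limma 3.58.1 (R 4.3.3, lmFit and eBayes), and p-values were Benjamini-Hochberg adjusted over the 19775 genes at a threshold of 0.05. The fit was also run on simulated data with independent noise and known changes in genes above background. That run does not bear on how the 46 genes were chosen or on calls at background level. The 46 genes, the lists of genes and the naming rule were chosen with earlier results of these data known. In full are given ETS1, FLI1, ST14, CHEK1, the end genes ESAM and GLB1L2, and the 10 other members with the largest absolute change, and at most 3 genes per list by size of change, apart from marker genes. Gene order was taken from RefSeq on GRCh38.p14, since the array files name no build, and only the sequences carry coordinates. Of the 19775 symbols, 19738 were found in that table. Precision is limited by the number of arrays and by the signal over background. Alternatives were median centring, quantile normalization, eBayes with trend and robust, leaving out each array, dropping dim probe sets, a replicate block, averaging the probe sets of a gene, dropping _x_at and _s_at probe sets, a 99th percentile background and the methods' t-test. Figures were drawn with matplotlib 3.10.9 (Python 3.11.15).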

Additional observations from a re-analysis of the deposited data

How the results depend on the processing

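The median change of the members above background was -0.59 under median centring, quantile normalization, trend and robust moderation and the filter on dim probe sets. It was -0.67 under the 99th percentile background level, which rose to 6.67 because a few olfactory receptor probe sets are bright and left 22 members, -0.67 over the 25 members left without _x_at and _s_at probe sets, and -0.52 where the probe sets of each gene were averaged. Leaving out 1 array at a time gave -0.64 to -0.56. The count of members called lower, 25, stayed between 18 and 27, with 20 to 24 when 1 array was left out, and the count 2-fold or more lower, 6, between 4 and 6. The methods' t-test gave 25 lower after adjustment and 27 before it. The count called higher, 2, was 1 under the 99th percentile background level and where probe sets were averaged, ETS1 then being at 0.03, and 1 to 2 when 1 array was left out. With the replicate block, 20 members were called lower and 2 higher, the median was -0.59, and CHEK1 did not pass. Samples with the same number in both lines did not deviate together (correlations -0.0255, 0.0155 and 0.0471 over 25348 probe sets). No pairing was therefore seen, though 3 arrays per line cannot exclude one. Averaging takes in dimmer probe sets and moved CDON to -0.41, CHEK1 to -0.40, ST14 to -0.57, ST3GAL4 to -0.65 and ADAMTS15 to 0.36. All of these kept their sign and side of the threshold. FLI1, at background, had a positive difference of 0.0039 without _x_at and _s_at probe sets. Across these settings 213 values of named members kept their sign and their side of the threshold, and 2 of FLI1 passed it. The 213 include the averages of CDON, CHEK1, ST14, ST3GAL4 and ADAMTS15, so a kept side can go with a smaller change.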
